A study of Mus musculus with 9 samples.

Results

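Gene expression was compared between B16.SIY cells carrying the second of 2 hairpins against Decr2 (shRNA2) and B16.SIY cells carrying a control hairpin, over all 10762 genes of the deposited table. The comparison took 6 of the study's 9 libraries: 3 of the stable line infected with Decr2 shRNA2 and 3 of the stable line infected with Control shRNA, chosen by their labels. The other 3 libraries, of a stable line with Decr2 shRNA1, entered the fit and served as a second reference. B16.SIY is a melanoma cell line from the mouse strain C57BL/6, and every group carried the model antigen SIYRYYGL fused with dsRED. All 3 lines were made by lentiviral infection and puromycin selection, and grown in culture. Each hairpin is represented by 1 selected line, so that the hairpin, its virus and the line cannot be told apart. No label says that the libraries of a line came from separate cultures, so that p-values reflect only how much these libraries vary, which may be technical variation. In bulk RNA, fewer cells with a transcript and less of it per cell cannot be told apart either.

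Decr2 encodes the dienoyl-CoA reductase of peroxisomes. Fatty acids with double bonds at even-numbered carbons give dienoyl-CoA intermediates during beta-oxidation, and the reductase removes the extra bond so that the chain can be shortened further. Mammalian cells meet shortage of amino acids, misfolded protein and several other stresses with a shared signalling route, the integrated stress response: kinases phosphorylate the translation factor eIF2, general protein synthesis slows, and the transcription factor ATF4 is made, which switches on genes for amino acid supply. A separate branch, the unfolded protein response of the endoplasmic reticulum (ER), raises the chaperones that fold secreted and membrane proteins.

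The deposited values are log2 levels not known to be corrected for gene length, so levels are compared between libraries and not between genes. Their linear values summed to 1014944, 1045849 and 1037250 in controls 0, 1 and 2 and to 984199, 983826 and 989103 in the shRNA2 libraries. Every control thus had a higher total than every shRNA2 library, and the main fit did not rescale them. The libraries numbered 0 stood apart: across genes, replicate 0 of shRNA2 correlated at 0.979 and 0.978 with the other two shRNA2 libraries, which correlated at 0.992 with each other, and replicate 0 of the control at 0.983 and 0.986 with the other two controls, which correlated at 0.994. The main counts below are therefore also given without the libraries numbered 0. Of 72 marker genes of T, B and NK cells, fibroblasts, endothelial cells and other cell types, 6 were in the table at all, and none of these passed the test: Lck, Col1a1, Pdgfrb, Postn, Egfl7 and Plvap. Col1a1 passed without control replicate 0 (adjusted p = 0.0213) and Plvap without shRNA2 replicate 0 (adjusted p = 0.0452), and both passed without the libraries numbered 0, at 1.72 and 0.65 higher in shRNA2. Pigment cell genes were present: 34 members of the melanocyte list were measured, none of which passed the test, with a median difference of -0.05. Of these 34, 5 fell with paired libraries, and without the libraries numbered 0, 14 fell and 1 rose, with a median of -0.19. What part these differences have in the results below was not tested.

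The hairpin's target was measured first. Decr2 (ENSMUSG00000036775, chr17:26081208-26090337 in GENCODE M21 on GRCm38) stood at 3.96, 4.10 and 3.71 in the control libraries 0, 1 and 2, at 2.87, 2.51 and 3.18 in the shRNA1 libraries, and at 0.84, 1.18 and 1.55 in the shRNA2 libraries, all log2. The 3 groups did not overlap, with shRNA2 the lowest. The difference between shRNA2 and control was -2.73 (SE 0.23, adjusted p = 0.000568) by limma over all genes with Benjamini-Hochberg adjustment, which leaves 15% of the control level. Against shRNA1 the difference was -1.66 (SE 0.23, adjusted p = 0.0233). The call against control held with any 1 library left out. The call against shRNA1 was lost with any 1 library left out except control 0 and shRNA1 0, adjusted p up to 0.137.

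At an adjusted p under 0.05, with no minimum on the fold, 1392 genes (12.9%) differed between shRNA2 and control: 782 were higher (7.27%) and 610 lower (5.67%). With the same-numbered libraries treated as pairs, 2583 genes passed (24.0%), 1438 higher and 1145 lower. Without the libraries numbered 0, 4011 passed (37.3%), 2068 higher (19.2%) and 1943 lower (18.1%), and 1381 of the 1392 were among them with the same sign. Counts of list members are to be read against the share over all genes in the same setting. Most changes were small: the median size among the 1392 was 0.50 on the log2 scale, against 0.18 over all genes, and 88.4% of all genes lay within 0.5 of 0. Of the called genes, 150 changed by at least 1 in size, 134 upward and 16 downward. Each of the 1392 had the same sign in all 3 pairs of same-numbered libraries, and in 1391 the shRNA2 libraries lay wholly outside the range of the controls, where 20.1% of all genes lay above it and 18.7% below. The genes were called on these same values, so neither count is a separate check. Where the groups do not overlap, the sign is the same in every pair. The plot of level against difference shows the asymmetry of the larger changes, with a long upper tail and a shallow, broad lower edge.

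**Figure D1:**
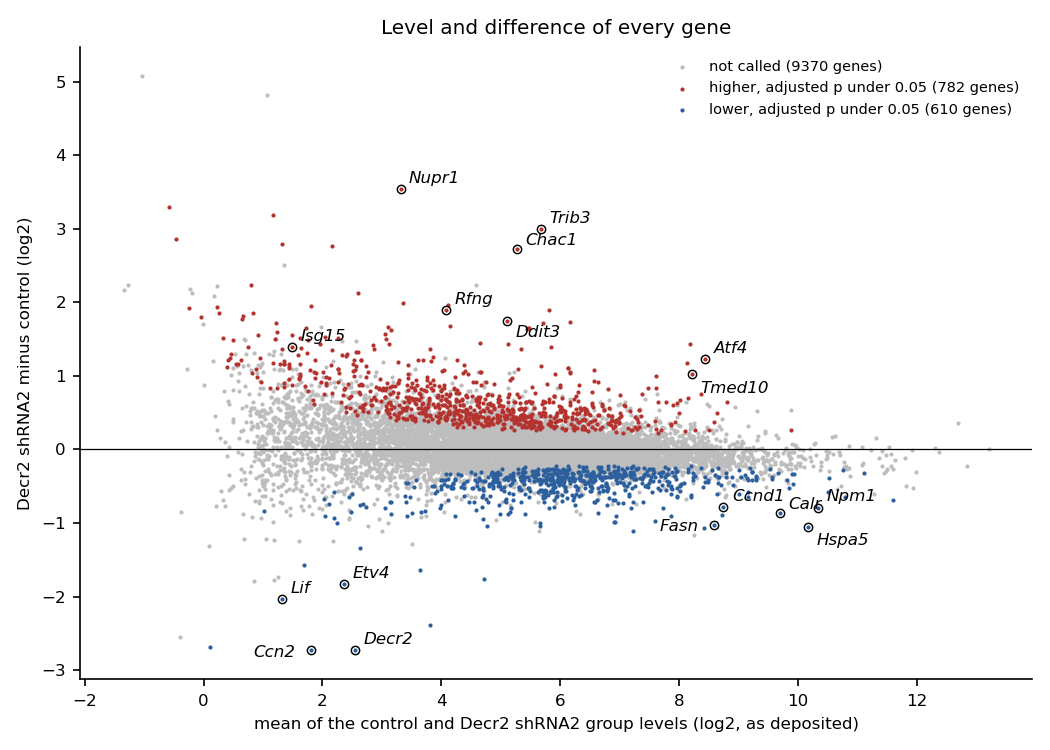
Each point is a gene, plotted by the mean of the control and Decr2 shRNA2 levels (log2, horizontal) and by the difference of shRNA2 from control (log2, vertical). Red points (782) rose and blue points (610) fell at an adjusted p under 0.05, grey points did not pass, and 17 genes of the text are circled. Increases reach above 3, while decreases among genes at higher levels stop near 1.

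Risen and fallen genes differed in level. The risen genes had a median level of 4.61 and the fallen genes of 6.11, where the median over all genes was 5.35. In the lowest 25% of genes by level 11.0% rose and 1.82% fell, and in the highest 25% 3.42% rose and 9.07% fell. The median standard error was 0.19 in the first of these and 0.10 in the second. Scaling mattered for this split: with linear values rescaled to one common sum per library, 1070 genes were higher and 380 lower. After the removal of the lowest 25% of genes, 487 were higher (6.03%) and 560 lower (6.94%). By length of the longest transcript the share that rose ran from 5.2% to 8.37% over 4 equal groups, and by chromosome the share that fell was largest on chromosome 11 (8.55%).

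The number of calls rests on every library of both groups. Leaving out control replicate 1 gave 418 calls and control replicate 2 gave 406. Leaving out shRNA2 replicate 1 gave 432, and shRNA2 replicate 2 gave 471. Without replicate 0 of the control there were 1058, without that of shRNA2 1033 and without that of shRNA1 2450. Of the 1392 called genes, 323 kept the call whichever of the 9 libraries was left out. Among 251 called genes named by rule, 89 did so, and that rule favours large changes and small p-values. All 251 kept their sign, which is no separate check. Where the shRNA2 libraries lie wholly outside the control range, leaving out 1 library cannot turn the sign. For the genes below, the same or the following paragraph says which kept the call. For those that did not, it gives the libraries that ended the call when left out, by group and number, with the largest adjusted p.

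Genes of the integrated stress response rose. Of 24 measured genes of this list, 15 rose and 1 fell, with a median difference of 1.31, against 0.005 over all genes. The 15 hold the transcription factors Atf4, Atf5, Ddit3 (CHOP) and Cebpg, the feedback genes Trib3 and Ppp1r15a, the stress gene Nupr1, and the growth and translation brakes Sesn2, Ddit4 and Eif4ebp1. The one that fell was Eif2s1, the eIF2 subunit that the kinases phosphorylate (-0.45, adjusted p = 0.0118). The mean log2 level of the list was 5.10, 5.34 and 5.36 in controls 0, 1 and 2 and 6.22, 6.77 and 6.72 in the shRNA2 libraries, with no overlap and with replicate 0 lowest in each group. The count of risen members ran from 10 (without shRNA2 replicate 1) to 18 (without shRNA1 replicate 0) with 1 library left out, and was 21 without the libraries numbered 0. With any 1 library left out, Ppp1r15a kept the call. The call was lost for Cebpg (without control 0, 1 or 2 or shRNA2 1 or 2, adjusted p up to 0.0846) and Eif2s1 (without control 1 or 2, adjusted p up to 0.0546).

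Atf4, the central factor of the response, had levels of 7.58, 7.94 and 7.96 in the controls and 8.76, 9.24 and 9.18 with shRNA2, a difference of 1.23 (SE 0.22, adjusted p = 0.0105). Its partner Ddit3, linked to cell death under lasting stress, had levels of 4.43, 4.07 and 4.21 and 5.93, 6.01 and 6.01, a difference of 1.75 (SE 0.10, adjusted p = 8.30e-05). Trib3, a pseudokinase induced by both factors, had levels of 4.06, 4.28 and 4.21 and 6.90, 7.38 and 7.27, a difference of 3.0 (SE 0.27, adjusted p = 0.00079). In all 3 genes every shRNA2 library lay above every control library, by more than the spread within either group. Ddit3 shares exonic sequence with the antisense gene Mars, and the strand setting of the counting is not given in the sources used here, so reads of the pair cannot be told apart; Mars itself did not pass the test, at 0.36.

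Nupr1, a small stress-induced nuclear protein, had levels of 1.87, 1.38 and 1.38 in the controls and 4.76, 5.23 and 5.26 with shRNA2, a difference of 3.54 (SE 0.22, adjusted p = 0.000116). Chac1, which degrades glutathione, had levels of 3.47, 4.10 and 4.19 and 6.28, 6.90 and 6.75, a difference of 2.72 (SE 0.35, adjusted p = 0.00309). On the linear scale these differences are 11.6-fold and 6.59-fold. Both genes were far above the control range in each shRNA2 library, and replicate 0 was the lowest of the 3. Other risen members were Atf5 at 1.90 (adjusted p = 0.027), Cth, which makes cysteine, at 1.96 (adjusted p = 0.0104), Ddit4 at 1.65 (adjusted p = 0.000351) and Sesn2 at 1.65 (adjusted p = 0.00616). Atf4, Ddit3, Trib3, Nupr1, Chac1, Cth, Ddit4 and Sesn2 kept the call whichever library was left out. Omitting 1 library ended the call of Atf5 (without control 0, 1 or 2 or shRNA2 1 or 2, adjusted p up to 0.101).

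Of the 24 genes of the list, 8 did not pass. Among them Slc7a11, the cystine importer, had levels of 2.74, 3.79 and 3.86 in the controls and 4.76, 6.12 and 6.24 with shRNA2, a difference of 2.24 (SE 0.64, adjusted p = 0.0507), and Atf3 was at 1.67 (SE 0.51, adjusted p = 0.0611). The libraries of each group spread widely for Slc7a11. The kinase genes Eif2ak3 (PERK) at -0.14 and Eif2ak4 (GCN2) at 0.36 did not pass either.

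The promoters of Chac1 and Nupr1 are printed because they carry the sequence element that ATF4 and its partners are known to bind. Shown are the 250 bases before the RefSeq start on GRCm38.p6, from chr2:119350992-119351241, plus strand, and from chr7:126625471-126625720, minus strand, 5′ to 3′, with capitals for the element TGATGNAA searched on both strands.
Chac1: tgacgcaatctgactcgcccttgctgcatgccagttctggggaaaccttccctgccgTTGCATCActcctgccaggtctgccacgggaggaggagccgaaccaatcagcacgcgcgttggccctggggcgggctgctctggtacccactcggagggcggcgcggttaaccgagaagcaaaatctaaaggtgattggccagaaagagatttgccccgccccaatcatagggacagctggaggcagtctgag
Nupr1: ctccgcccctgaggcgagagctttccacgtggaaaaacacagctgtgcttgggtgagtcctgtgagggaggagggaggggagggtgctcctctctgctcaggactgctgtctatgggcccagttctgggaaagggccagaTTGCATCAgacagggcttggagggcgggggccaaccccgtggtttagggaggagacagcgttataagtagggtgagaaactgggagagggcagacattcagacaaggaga
The element stands 186 to 193 bases before the start in Chac1 and 103 to 110 bases before it in Nupr1, on the minus strand of the gene in both. In windows from 250 bases before to 50 after the start, it was found in 2.56% of 8699 tested genes with a promoter sequence, in 4.82% of 643 risen genes and in 12.8% of the 109 that rose by at least 1. Among the stress response list it was in 6 of 21 (28.6%): Asns, Atf3, Chac1, Nupr1, Slc7a11 and Trib3. Those 6 had a median difference of 2.48, and the 15 without it one of 0.92. Of the 6 with the element 4 rose, and of the 15 without it 9 rose. Among the aminoacyl-tRNA synthetases described below, 5 of 15 promoters held it (Aars, Gars, Iars, Tars and Yars). None of these 5 passed, with a median of 0.53. Of all promoters that RefSeq supplied, 3.97% hold it. A match is a run of letters and not evidence of binding.

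Genes of amino acid supply rose in part. Of 20 measured amino acid transporters 5 rose and none fell. Slc1a5, which carries glutamine, had levels of 6.01, 5.78 and 5.85 in the controls and 6.62, 6.85 and 6.83 with shRNA2, a difference of 0.88 (SE 0.10, adjusted p = 0.00231). Slc3a2 and Slc7a5, the chains of the exchanger for large neutral amino acids, were 0.83 and 0.75 higher (adjusted p = 0.00479 and 0.0125), and Slc1a4 was 1.64 (adjusted p = 0.0283) higher. No single library, when left out, ended the call of Slc1a5 and Slc3a2. Calls that ended with 1 library omitted were those of Slc7a5 (without shRNA2 1 or 2, adjusted p up to 0.0544) and Slc1a4 (without control 0, 1 or 2 or shRNA2 1 or 2, adjusted p up to 0.0952). The number of risen transporters ran from 2 (without shRNA2 replicate 1) to 8 (without shRNA1 replicate 0), and was 10 without the libraries numbered 0.

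Some enzymes of amino acid metabolism rose and others fell. In the list outside the serine and folate routes, 6 rose and 2 fell of 24 measured, and the median difference was -0.01. Once replicate 0 of every group was dropped, 9 rose and 7 fell, and the median difference was -0.05. Among the risen, Pycr1, which closes the proline ring, was 1.99 (adjusted p = 0.00498) higher. Pck2, the mitochondrial carboxykinase, was 1.73 (adjusted p = 0.00547) higher. Asns, asparagine synthetase, had levels of 6.92, 7.75 and 7.71 and 8.16, 9.32 and 9.23, a difference of 1.44 (SE 0.39, adjusted p = 0.0429). Replicate 0 was the lowest library in both groups, and the groups did not overlap. Gpt2, which makes alanine, was 1.39 (adjusted p = 0.0108) higher, and Bcat1, which transfers the amino group of branched-chain amino acids, 0.64 (adjusted p = 0.0153) higher. The call of Pycr1 and Pck2 held with each library left out in turn. With 1 library omitted, calls were lost for Asns (with any 1 library left out except shRNA1 0 and shRNA2 0, adjusted p up to 0.145), Gpt2 (without shRNA2 1, adjusted p up to 0.0507) and Bcat1 (without control 2 or shRNA2 2, adjusted p up to 0.0657).

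Serine and folate enzymes went both ways. Of 17 measured, 4 rose and 4 fell. The mitochondrial folate enzymes Aldh1l2 and Mthfd2 were 1.72 and 1.18 higher (adjusted p = 0.00183 and 0.0331), and Psph, the last step of serine synthesis, 1.36 (adjusted p = 0.0278) higher. Of the 4 that fell, 3 are the folate polyglutamate synthase Fpgs (-0.49, adjusted p = 0.045), Mthfd1 (-0.35) and the mitochondrial folate carrier Slc25a32 (-0.33, adjusted p = 0.0396). Omitting any 1 library left Aldh1l2 past the threshold. Single libraries decided the call of Mthfd2 (without control 0, 1 or 2 or shRNA2 1 or 2, adjusted p up to 0.114), Psph (without control 0, 1 or 2 or shRNA2 1 or 2, adjusted p up to 0.103), Fpgs (with any 1 library left out except shRNA1 0 and shRNA2 0, adjusted p up to 0.145), Mthfd1 (with any 1 library left out except control 0 and shRNA1 0, adjusted p up to 0.171) and Slc25a32 (with any 1 library left out except shRNA1 0 and shRNA2 0, adjusted p up to 0.14). With 1 library left out the risen members ran from 1 (without control replicate 0) to 6 (without shRNA1 replicate 0) and the fallen ones from 0 (without control replicate 1) to 5 (without shRNA1 replicate 0). With paired libraries 7 rose, and without those numbered 0, 8 rose and 6 fell.

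The aminoacyl-tRNA synthetases went both ways in the unpaired fit: 2 rose and 4 fell of 22 measured. The risen ones were Cars (0.82, adjusted p = 0.0469) and Sars (0.70, adjusted p = 0.0353), and the fallen ones Hars (-0.23), Kars (-0.27), Rars (-0.27) and the scaffold Aimp2 (-0.62, adjusted p = 0.00662). Treating libraries as pairs, 9 rose, and without the libraries numbered 0, 11 rose and 6 fell. With any 1 library left out, Aimp2 kept the call. The call was lost for Cars (with any 1 library left out except shRNA1 0 and shRNA2 0, adjusted p up to 0.149), Sars (without control 0, 1 or 2 or shRNA2 1 or 2, adjusted p up to 0.124), Hars (with any 1 library left out except shRNA1 0, adjusted p up to 0.132), Kars (with any 1 library left out except shRNA1 0 and 2, adjusted p up to 0.129) and Rars (without control 1 or 2 or shRNA2 0, 1 or 2, adjusted p up to 0.118). The risen members ran from 0 (without control replicate 0) to 7 (without shRNA1 replicate 0) and the fallen ones from 1 (without control replicate 1) to 4 (without shRNA1 replicate 0).

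**Figure D2:**
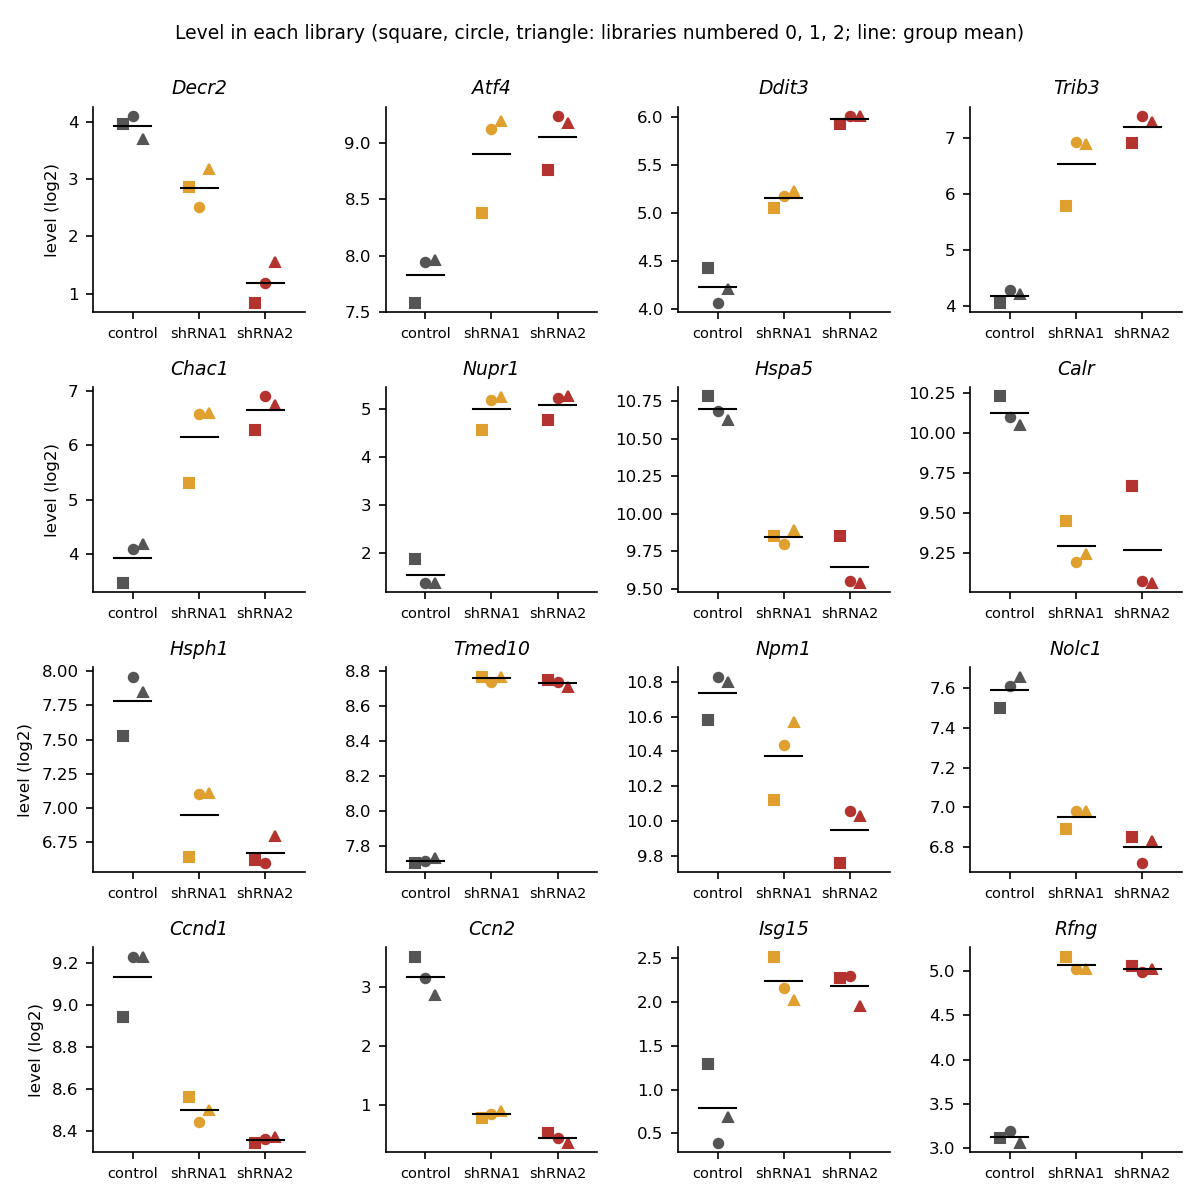
Log2 level of 16 genes in each library of the control, shRNA1 and shRNA2 groups, with squares, circles and triangles for the libraries numbered 0, 1 and 2 and a line for the group mean; the vertical axes differ and do not start at 0. The shRNA2 libraries lie wholly above the controls for Atf4, Ddit3, Trib3, Chac1, Nupr1, Tmed10, Isg15 and Rfng, and wholly below them for the other 8 genes.

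Chaperones of the ER fell, while the stress factors above rose. Of 29 measured chaperones and folding enzymes 15 fell and 1 rose, with a median difference of -0.47. Hspa5, the ER member of the heat shock protein family also called BiP, had levels of 10.78, 10.68 and 10.62 in the controls and 9.85, 9.55 and 9.54 with shRNA2, a difference of -1.05 (SE 0.10, adjusted p = 0.000848). Calr, a chaperone of glycoproteins, had levels of 10.23, 10.10 and 10.05 and 9.67, 9.07 and 9.06, a difference of -0.86 (SE 0.16, adjusted p = 0.0112). Every shRNA2 library was below every control library for both, and replicate 0 was the highest of the shRNA2 libraries.

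The same direction held for Hyou1 (-0.90, adjusted p = 0.00272), a nucleotide exchange factor of Hspa5, for the disulfide isomerases Pdia4 (-0.89, adjusted p = 0.00272) and Pdia3 (-0.47, adjusted p = 0.00606), for Hsp90b1 (-0.65, adjusted p = 0.00587), and for the secreted stress proteins Manf (-0.73, adjusted p = 0.016) and Creld2 (-0.70, adjusted p = 0.00929). The one that rose was Sil1, another exchange factor (0.42, adjusted p = 0.0469). Hspa5, Hyou1, Pdia4, Pdia3, Hsp90b1 and Creld2 kept the call whichever library was left out. Omitting 1 library ended the call of Calr (without shRNA2 1, adjusted p up to 0.0508), Manf (without shRNA2 1 or 2, adjusted p up to 0.0673) and Sil1 (with any 1 library left out except shRNA1 0, adjusted p up to 0.159). The mean log2 level of the list was 7.43, 7.33 and 7.31 in the controls and 7.11, 6.89 and 6.90 with shRNA2, without overlap. The fallen members ran from 8 (without shRNA2 replicate 1) to 18 (without shRNA1 replicate 0), and were 19 without the libraries numbered 0.

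Hspa5 and Calr are printed for the ER stress response element, which is CCAAT, 9 bases of any kind, then CCACG, and so contains the shorter CCAAT box. It was searched on both strands. The 250 bases before the RefSeq start on GRCm38.p6 come from chr2:34771840-34772089, plus strand, and from chr8:84846932-84847181, minus strand, with the element in capitals.
Hspa5: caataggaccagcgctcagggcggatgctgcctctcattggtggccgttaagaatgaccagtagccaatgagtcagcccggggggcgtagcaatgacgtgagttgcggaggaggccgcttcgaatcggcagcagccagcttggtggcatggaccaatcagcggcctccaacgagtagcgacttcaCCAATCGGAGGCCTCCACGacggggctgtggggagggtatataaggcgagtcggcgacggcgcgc
Calr: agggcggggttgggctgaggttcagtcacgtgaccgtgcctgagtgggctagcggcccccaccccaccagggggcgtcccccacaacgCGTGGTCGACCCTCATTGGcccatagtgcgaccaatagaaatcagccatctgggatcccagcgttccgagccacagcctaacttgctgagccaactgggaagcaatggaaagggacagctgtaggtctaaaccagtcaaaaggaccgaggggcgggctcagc
It lies 47 to 65 bases before the start in Hspa5, and 144 to 162 bases before it in Calr, where it is on the other strand. The element was in 18 (0.207%) of the tested genes with a promoter sequence. Of these 18, 8 fell, 1 rose and 9 did not pass. In the chaperone list 8 of 24 promoters held it (Calr, Canx, Creld2, Dnajc3, Ero1lb, Hsp90b1, Hspa5 and Pdia6); 7 of those 8 fell, and 5 of the 16 without it fell, with medians of -0.62 and -0.29. No single library, when left out, ended the call of Pdia6. Calls that ended with 1 library omitted were those of Canx (without control 1 or 2 or shRNA2 0, 1 or 2, adjusted p up to 0.119) and Dnajc3 (without control 1 or shRNA2 1 or 2, adjusted p up to 0.0587). Of all supplied promoters 0.119% hold it.

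Genes that act beside the ER chaperones changed less. In the list of ER stress sensors and degradation factors 2 rose and 2 fell of 26 measured: Herpud1 (0.73, adjusted p = 0.013) and Herpud2 (0.30, adjusted p = 0.018) rose, while the ubiquitin ligase Syvn1 (-0.45, adjusted p = 0.0382) and Selenos (-0.56, adjusted p = 0.0277) fell. Of 36 components of the signal recognition particle, translocon and oligosaccharyl transferase, 8 fell and none rose, such as the channel subunit Sec61a1 (-0.41, adjusted p = 0.0111) and Ssr1 (-0.51, adjusted p = 0.0154). With 1 library omitted, calls were lost for Herpud1 (without control 1 or 2 or shRNA2 1, adjusted p up to 0.0604), Herpud2 (without control 1 or 2 or shRNA2 1 or 2, adjusted p up to 0.0735), Syvn1 (with any 1 library left out except shRNA1 0 and shRNA2 0, adjusted p up to 0.128), Selenos (without control 0, 1 or 2 or shRNA2 1 or 2, adjusted p up to 0.0991), Sec61a1 (without control 1 or 2 or shRNA2 1 or 2, adjusted p up to 0.0563) and Ssr1 (without control 1 or shRNA2 1 or 2, adjusted p up to 0.0641). The 8 became from 0 (without control replicate 1) to 11 (without shRNA1 replicate 0) with 1 library left out, and 15 without those numbered 0.

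Tmed10 stood apart from the vesicle coat genes around it. It encodes a p24 cargo receptor of the early secretory pathway and had levels of 7.70, 7.71 and 7.73 in the controls and 8.75, 8.74 and 8.71 with shRNA2, a difference of 1.02 (SE 0.06, adjusted p = 8.30e-05). The SD between libraries was 0.01 in the controls and 0.02 with shRNA2, and the groups were far apart. Of the 40 measured genes of COPI, COPII and p24 receptors, 2 rose (Tmed10 and Copg2, 0.64 (adjusted p = 0.0127)) and 7 fell, such as Sec24a (-0.41, adjusted p = 0.0309) and Sec24c (-0.39, adjusted p = 0.0179). The call of Tmed10 held with each library left out in turn. Single libraries decided the call of Copg2 (without control 1 or shRNA2 1, adjusted p up to 0.0606), Sec24a (with any 1 library left out except shRNA1 0, 1 and 2, adjusted p up to 0.121) and Sec24c (without control 0, 1 or 2 or shRNA2 1 or 2, adjusted p up to 0.0725). The fallen ones ran from 0 (without control replicate 1) to 14 (without shRNA1 replicate 0). Paired libraries gave 13 that fell, and leaving out the libraries numbered 0 gave 18.

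Cytosolic chaperones fell in part. Hsph1, a large heat shock protein, had levels of 7.53, 7.96 and 7.85 in the controls and 6.62, 6.60 and 6.80 with shRNA2, a difference of -1.11 (SE 0.15, adjusted p = 0.00392). Hspa8, the constitutive member of its family, fell by 0.68 on the log2 scale (adjusted p = 0.00309); its exons overlap small nucleolar RNA genes on the same strand. Groups did not overlap for either gene. Of 33 measured members of the list, 5 fell and 1 rose, and none of 16 mitochondrial chaperones and proteases passed. Omitting any 1 library left Hsph1 and Hspa8 past the threshold. With paired libraries 8 fell, and 15 without those numbered 0. The lowest count with 1 library left out was 2, without control replicate 1.

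Transcripts of ribosome production factors fell broadly, while ribosome production itself was not measured. Of 67 measured genes of RNA polymerase I and ribosomal RNA processing, 35 fell and none rose, with a median difference of -0.34. The list's mean log2 level was 6.42, 6.50 and 6.49 in the controls and 6.05, 6.13 and 6.12 with shRNA2, and these ranges did not overlap. Nolc1, a nucleolar chaperone of small nucleolar ribonucleoproteins, had levels of 7.5, 7.61 and 7.66 and 6.85, 6.72 and 6.83, a difference of -0.79 (SE 0.07, adjusted p = 0.000848). Npm1, an abundant nucleolar protein, had levels of 10.58, 10.83 and 10.80 and 9.76, 10.06 and 10.03, a difference of -0.79 (SE 0.13, adjusted p = 0.00862). In both genes the shRNA2 libraries lay wholly below the controls.

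Polr1b, a catalytic subunit of RNA polymerase I, fell by 0.79 (adjusted p = 0.000684), the rRNA methyltransferase Nop2 by 0.68 (adjusted p = 0.000643), the small subunit factor Tsr1 by 0.72 (adjusted p = 0.00864) and Dkc1, which makes pseudouridine, by 0.76 (adjusted p = 0.0268). With any 1 library left out, Nolc1, Npm1, Polr1b, Nop2 and Tsr1 kept the call. The call was lost for Dkc1 (with any 1 library left out except shRNA1 0, 1 and 2, adjusted p up to 0.0992) and Rpl36al (with any 1 library left out except shRNA1 0 and 1, adjusted p up to 0.154). The fallen members of the list ran from 12 (without control replicate 2) to 47 (without shRNA1 replicate 0), and were 52 without the libraries numbered 0. Of 83 proteins of the cytosolic ribosome itself 1 passed, Rpl36al (-0.33, adjusted p = 0.0449), and their median difference was -0.07, or 0.04 with linear values scaled to a common sum. Of 77 mitochondrial ribosomal proteins 6 fell and 1 rose. Without the libraries numbered 0, where 18.1% of all genes fell, 10 of the 83 cytosolic and 18 of the 77 mitochondrial ribosomal proteins fell.

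Some genes of other steps of RNA handling and translation fell too. Among 101 splicing factors 23 fell and none rose, with a median of -0.16, for example Sf3b3 (-0.63, adjusted p = 0.00616) and Srsf6 (-0.47, adjusted p = 0.00272). Among 48 DEAD and DEAH box helicases 12 fell and 2 rose, and among 58 translation factors 10 fell and 3 rose. The last 3 hold Eif4ebp1, which blocks cap-dependent initiation (1.04, adjusted p = 0.00428), and Eef2k, the kinase that halts elongation (0.73, adjusted p = 0.00286). Sf3b3, Srsf6, Eif4ebp1 and Eef2k kept the call whichever library was left out. The fallen splicing factors ran from 6 (without control replicate 2) to 33 (without shRNA1 replicate 0), the helicases from 1 (without control replicate 1) to 20 (without shRNA1 replicate 0) and the translation factors from 0 (without control replicate 1) to 17 (without shRNA1 replicate 0). With paired libraries 36, 20 and 20 fell, and without those numbered 0, 47, 26 and 24.

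Genes of nucleotide synthesis and DNA replication fell in part. Of 24 measured enzymes of purine and pyrimidine synthesis 9 fell and none rose, with a median of -0.31. Umps, which makes uridine monophosphate, had levels of 6.33, 6.37 and 6.42 in the controls and 5.78, 5.78 and 5.87 with shRNA2, a difference of -0.56 (SE 0.07, adjusted p = 0.00252). Ppat, the first committed enzyme of purine synthesis, was -0.56 (adjusted p = 0.00498), Atic -0.49 (adjusted p = 0.00555) and Cad, which starts pyrimidine synthesis, -0.73 (adjusted p = 0.0167). Among 50 replication genes 14 fell and none rose, with a median of -0.21, and Cdc6, a licensing factor, had levels of 6.35, 6.51 and 6.49 and 5.76, 5.78 and 5.81, a difference of -0.66 (SE 0.07, adjusted p = 0.00159). The control and shRNA2 libraries did not overlap for Umps or Cdc6.

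Tyms, thymidylate synthase, was lower as well (-0.50, adjusted p = 0.00546), as was Cdt1, which loads the helicase at origins (-0.40, adjusted p = 0.00864). No single library, when left out, ended the call of Umps, Ppat, Atic, Cdc6, Tyms and Cdt1. Omitting 1 library ended the call of Cad (without control 1 or 2 or shRNA2 1, adjusted p up to 0.0741). The fallen members ran from 3 (without control replicate 1) to 14 (without shRNA1 replicate 0) for nucleotide synthesis and from 4 (without control replicate 1) to 17 (without shRNA1 replicate 0) for replication, and were 17 and 26 without the libraries numbered 0. Of 45 genes of G2 and M phase 1 passed, the kinesin Kif4 (-0.38, adjusted p = 0.0357), and their median was -0.13. With paired libraries 5 of the 45 fell and 2 rose, and without those numbered 0, 21 fell and 4 rose, with a median of -0.19. Calls that ended with 1 library omitted were those of Kif4 (without control 1 or 2 or shRNA1 2 or shRNA2 1 or 2, adjusted p up to 0.135).

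A cyclin fell and several growth brakes rose. Cyclin D1 (Ccnd1), which promotes entry into the cell cycle, had levels of 8.94, 9.23 and 9.23 in the controls and 8.34, 8.36 and 8.37 with shRNA2, a difference of -0.78 (SE 0.09, adjusted p = 0.00235). All shRNA2 libraries lay below all controls. Of 27 measured p53 targets and growth brakes 7 rose and 1 fell; the risen ones hold Cdkn1a, the CDK inhibitor p21 (0.59, adjusted p = 0.0206), Gadd45a (1.68, adjusted p = 0.0173), Ccng2 (0.74, adjusted p = 0.00753) and Trp53inp1 (0.58, adjusted p = 0.00328), and the fallen one is Trp53 itself (-0.24, adjusted p = 0.0404). In the mTORC1 pathway 7 of 38 rose and none fell; Sesn2, Ddit4 and Eif4ebp1 of this list are also members of the stress response. The call of Ccnd1, Ccng2 and Trp53inp1 held with each library left out in turn. With 1 library omitted, calls were lost for Cdkn1a (without control 1 or shRNA2 1 or 2, adjusted p up to 0.0739), Gadd45a (without control 1 or 2 or shRNA2 1 or 2, adjusted p up to 0.0708) and Trp53 (with any 1 library left out except control 0 and shRNA1 0, adjusted p up to 0.162). The risen brakes ran from 3 (without control replicate 1) to 10 (without shRNA1 replicate 0) and the risen mTORC1 genes from 4 (without control replicate 1) to 9 (without shRNA1 replicate 0). Without the libraries numbered 0, 12 rose and 4 fell among the brakes, and 9 rose and 5 fell among the mTORC1 genes.

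**Figure D3:**
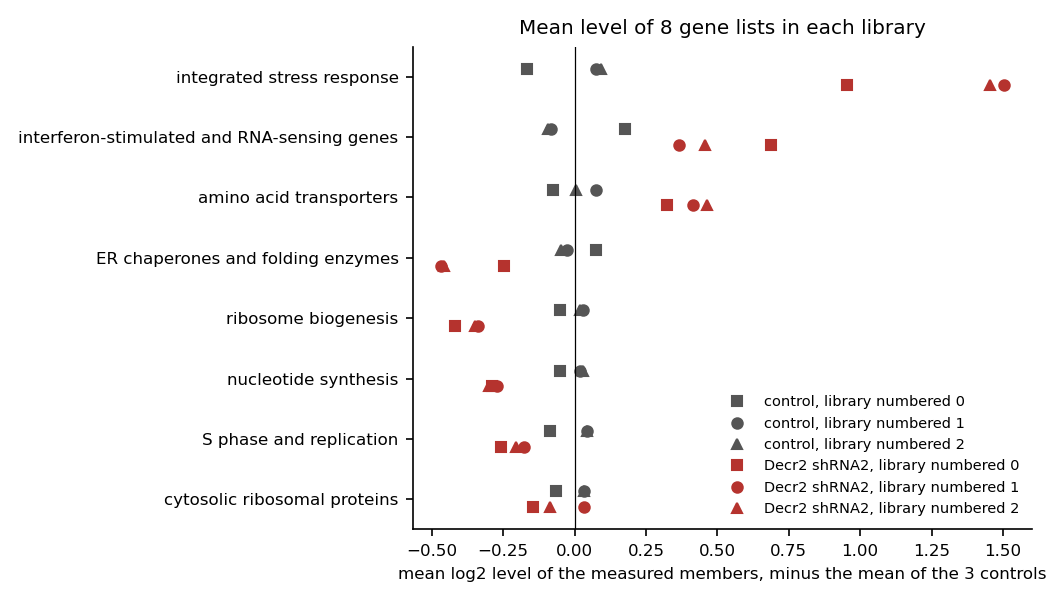
Mean log2 level of the measured members of 8 gene lists in each of the 6 libraries, minus the mean of the 3 controls; grey symbols are controls and red symbols shRNA2 libraries, with squares, circles and triangles for the libraries numbered 0, 1 and 2. The groups separate for the first 7 lists, upward for 3 and downward for 4, and overlap for the cytosolic ribosomal proteins.

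Interferon-stimulated and RNA-sensing genes were higher, at low levels. Of 29 measured, 11 rose and 2 fell, with a median of 0.49. Ifih1 (MDA5), a sensor of double-stranded RNA, had levels of 2.12, 2.74 and 1.92 in the controls and 3.84, 3.83 and 3.83 with shRNA2, a difference of 1.57 (SE 0.21, adjusted p = 0.00332). Ifit1, which binds foreign RNA, had levels of 2.49, 1.92 and 2.08 and 3.52, 3.19 and 3.21, a difference of 1.14 (SE 0.17, adjusted p = 0.00507). Isg15, a ubiquitin-like modifier, had levels of 1.29, 0.39 and 0.69 and 2.28, 2.30 and 1.96, a difference of 1.39 (SE 0.26, adjusted p = 0.012). The groups did not overlap in any of the 3.

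Parp14 was 1.43 (adjusted p = 0.00684) higher and Ddx58 (RIG-I), another RNA sensor, 0.81 (adjusted p = 0.0495) higher. Tmem173 (STING), which relays the signal of cytosolic DNA, fell (-0.36, adjusted p = 0.0498), as did Samhd1 (-0.46, adjusted p = 0.0152). Omitting any 1 library left Ifih1, Ifit1 and Parp14 past the threshold. Single libraries decided the call of Isg15 (without control 2 or shRNA2 1, adjusted p up to 0.0537), Ddx58 (with any 1 library left out except shRNA1 0 and shRNA2 1, adjusted p up to 0.171), Tmem173 (with any 1 library left out except shRNA1 0 and shRNA2 0, adjusted p up to 0.172) and Samhd1 (without control 1 or 2 or shRNA2 1, adjusted p up to 0.0695). The risen members ran from 5 (without control replicate 1) to 15 (without shRNA1 replicate 0), with 17 in paired libraries and 18 without those numbered 0. The list lies low in the table: 14 of its 29 genes remained with the lowest 25% of genes removed, and 3 of those rose.

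The Isg15 promoter is printed for the interferon-stimulated element, TTTC, 2 bases of any kind, then TTTC, which occurs there in overlapping copies. The 250 bases before the RefSeq start on GRCm38.p6 come from chr4:156200819-156201068, minus strand, with capitals for matches on either strand.
Isg15: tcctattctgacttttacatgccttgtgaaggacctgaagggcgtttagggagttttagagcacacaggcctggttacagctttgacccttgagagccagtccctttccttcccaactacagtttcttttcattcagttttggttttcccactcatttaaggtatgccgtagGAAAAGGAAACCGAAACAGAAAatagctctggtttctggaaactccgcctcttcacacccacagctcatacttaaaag
There are 3 matches, all on the other strand, between 57 and 78 bases before the start. In the list 9 of 24 promoters (37.5%) held the element, against 3.41% of tested genes, and 6 of those 9 rose, as did 3 of the 15 without it. Of all supplied promoters 3.44% hold it.

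Genes of antigen presentation and inflammation were mixed. In the class I presentation list 4 rose and 3 fell of 16 measured: the heavy chain H2-K1 (0.88, adjusted p = 0.0131), the peptide transporter Tap2 (0.97, adjusted p = 0.0342) and the proteasome activators Psme1 and Psme2 rose, whereas the 3 that fell are the ER chaperones Calr, Canx and Pdia3. Of 25 genes of NF-kB, cytokines and chemokines 7 rose and 1 fell. Many members of both lists lie low. With the lowest 25% of genes removed, 14 of these 25 remained, of which 2 rose and none fell. Of the presentation list 10 genes then remained, of which 2 rose and 3 fell. Bcl3, a nuclear cofactor of NF-kB, had levels of 0.99, 0.27 and -0.19 and 2.0, 1.99 and 2.23, a difference of 1.72 (SE 0.28, adjusted p = 0.00748). Lif, a cytokine, had levels of 2.16, 2.57 and 2.27 and 0.68, -0.39 and 0.62, a difference of -2.03 (SE 0.35, adjusted p = 0.00864). The chemokine Ccl5 was 1.81 (adjusted p = 0.0276) and Nfkbia, the inhibitor that NF-kB induces, 0.78 (adjusted p = 0.00419). With any 1 library left out, Bcl3, Lif and Nfkbia kept the call. The call was lost for H2-K1 (without control 1 or 2 or shRNA2 1, adjusted p up to 0.0605), Tap2 (with any 1 library left out except shRNA1 0 and 1 and shRNA2 0, adjusted p up to 0.124), Psme1 (without control 1 or 2 or shRNA2 0, 1 or 2, adjusted p up to 0.116), Psme2 (without control 1 or 2 or shRNA2 1 or 2, adjusted p up to 0.0818) and Ccl5 (without control 1 or 2 or shRNA2 0, 1 or 2, adjusted p up to 0.104). Risen members ran from 0 (without control replicate 1) to 7 (without shRNA1 replicate 0) for presentation and from 3 (without control replicate 1) to 7 (without shRNA1 replicate 0) for NF-kB. With paired libraries, or without those numbered 0, 7 presentation genes rose.

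Of 20 measured genes of peroxisomal fatty acid oxidation, the pathway in which Decr2 works, 3 rose, where 7.27% of all genes rose, and Decr2 was the only one that fell. Pecr, a peroxisomal enoyl-CoA reductase, was 0.52 (adjusted p = 0.0326), Abcd4 0.39 (adjusted p = 0.033) and the carnitine transferase Crot 0.29 (adjusted p = 0.0296). The multifunctional enzymes Ehhadh (0.14) and Hsd17b4 (0.11) and the isomerase Eci2 (0.23) did not pass. The mitochondrial counterpart Decr1 did not pass either (0.12). Omitting 1 library ended the call of Pecr (with any 1 library left out except shRNA1 0 and shRNA2 0, adjusted p up to 0.117), Abcd4 (with any 1 library left out except shRNA1 0, 1 and 2, adjusted p up to 0.12) and Crot (with any 1 library left out except shRNA1 0 and 1, adjusted p up to 0.112). Risen members ran from 0 (without control replicate 0) to 5 (without shRNA1 replicate 0), with 6 in paired libraries and 9 without those numbered 0, where 19.2% of all genes rose. Of 24 genes of peroxisome assembly and ether lipids 3 rose, led by the membrane protein Pxmp4 (0.82, adjusted p = 0.00772), and of 25 genes of mitochondrial fatty acid oxidation 4 rose, among them the carnitine carrier Slc22a5 (0.47, adjusted p = 0.0278). Without the libraries numbered 0, 7 rose and 1 fell in the first of these lists and 6 rose and 6 fell in the second. Pxmp4 kept the call whichever library was left out. Calls that ended with 1 library omitted were those of Slc22a5 (without control 1 or 2 or shRNA2 0 or 1, adjusted p up to 0.11).

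Genes of fatty acid synthesis split. Fasn, fatty acid synthase, had levels of 9.31, 9.05 and 8.95 in the controls and 8.41, 7.77 and 8.05 with shRNA2, a difference of -1.02 (SE 0.17, adjusted p = 0.00772). The elongase Elovl6 fell with it (-0.57, adjusted p = 0.0109). In contrast Acss2, which makes cytosolic acetyl-CoA from acetate, had levels of 4.03, 3.88 and 3.85 and 4.69, 4.65 and 4.72, a difference of 0.77 (SE 0.08, adjusted p = 0.00202). Groups did not overlap for Fasn or Acss2. Mid1ip1, an activator of acetyl-CoA carboxylase (0.65, adjusted p = 0.00309), Acacb, one of those carboxylases (0.84, adjusted p = 0.0224), and the desaturase Scd1 (0.44, adjusted p = 0.0237) rose, so that 4 rose and 3 fell of 22 measured, and 7 rose and 8 fell without the libraries numbered 0. No single library, when left out, ended the call of Fasn, Acss2 and Mid1ip1. With 1 library omitted, calls were lost for Elovl6 (without control 2, adjusted p up to 0.0511), Acacb (without control 1 or 2 or shRNA2 0 or 2, adjusted p up to 0.0862) and Scd1 (without control 1 or 2 or shRNA2 1 or 2, adjusted p up to 0.101).

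Sterol genes showed 2 decreases and no increase of 33 measured. Npc1, which exports cholesterol from lysosomes, had levels of 6.26, 6.14 and 6.08 in the controls and 5.48, 4.94 and 5.07 with shRNA2, a difference of -1.0 (SE 0.13, adjusted p = 0.00316), and Soat1, which esterifies cholesterol, was -0.46 (adjusted p = 0.0298). All shRNA2 libraries were below the controls for Npc1. With paired libraries 4 sterol genes rose, and 13 without those numbered 0. The call of Npc1 held with each library left out in turn. Single libraries decided the call of Soat1 (without control 0, 1 or 2 or shRNA2 1 or 2, adjusted p up to 0.119). Exons of Npc1 overlap Rmc1 on the other strand.

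In the list for ferroptosis defence and glutathione, 3 rose and 3 fell of 34, but 7 rose and 15 fell without the libraries numbered 0. The risen ones were Chac1, Slc3a2 and Gch1, which makes tetrahydrobiopterin (1.28, adjusted p = 0.0169). The fallen ones were Pgd (-0.59, adjusted p = 0.00392), Gsto1 and Srxn1. Gpx4, the lipid hydroperoxidase, did not pass (0.30). Omitting any 1 library left Pgd past the threshold. The call was lost for Gch1 (without control 1 or 2 or shRNA2 1 or 2, adjusted p up to 0.0683), Gsto1 (without control 0, 1 or 2 or shRNA2 1 or 2, adjusted p up to 0.101) and Srxn1 (without control 1 or 2 or shRNA2 1 or 2, adjusted p up to 0.113).

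Matrix and adhesion genes held some of the larger decreases. Ccn2 (CTGF), a target of the Hippo and TGF-beta pathways, had levels of 3.52, 3.16 and 2.87 in the controls and 0.53, 0.45 and 0.36 with shRNA2, a difference of -2.73 (SE 0.21, adjusted p = 0.000351), which leaves 15%. Every shRNA2 library was far below every control. Lamb1, a laminin chain, was -1.64 (adjusted p = 0.013), the basement membrane proteoglycan Hspg2 -0.90 (adjusted p = 0.0286) and the adhesion molecule Mcam -1.07 (adjusted p = 0.0498). Over 57 matrix genes 3 rose and 4 fell, with a median of 0.01. The Hippo list gave 3 risen and 3 fallen of 22, with the TEAD factors divided: Tead3 rose (0.88, adjusted p = 0.00662) and Tead4 fell (-0.79, adjusted p = 0.00272). Of the MAPK feedback genes Etv4 (-1.83, adjusted p = 0.0118) and Etv5 (-1.04, adjusted p = 0.0243) fell, and the other 24 did not pass. Without the libraries numbered 0, 16 rose and 13 fell among the matrix genes, 5 rose and 6 fell in the Hippo list and 6 rose and 7 fell among the MAPK feedback genes. With any 1 library left out, Ccn2, Tead3 and Tead4 kept the call. Omitting 1 library ended the call of Lamb1 (without control 1, adjusted p up to 0.059), Hspg2 (without control 1 or 2 or shRNA2 0 or 1, adjusted p up to 0.114), Mcam (with any 1 library left out except control 0 and shRNA1 0, adjusted p up to 0.167), Etv4 (without control 1 or 2, adjusted p up to 0.0551) and Etv5 (without control 1 or 2 or shRNA2 0, 1 or 2, adjusted p up to 0.0995).

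Several genes with very small p-values lay outside the groups above. Rfng, a glycosyltransferase that modifies Notch, had the smallest adjusted p of the comparison: its levels were 3.12, 3.20 and 3.06 in the controls and 5.05, 4.99 and 5.02 with shRNA2, a difference of 1.89 (SE 0.08, adjusted p = 1.89e-05). Nrbp2, a pseudokinase, had levels of 1.67, 1.42 and 1.54 and 3.89, 3.50 and 3.62, a difference of 2.13 (SE 0.16, adjusted p = 0.000351). Wipi1, which acts in autophagosome formation, had levels of 4.22, 4.04 and 4.14 and 5.10, 5.22 and 5.25, a difference of 1.05 (SE 0.08, adjusted p = 0.000351). The shRNA2 libraries lay well above the controls in all 3. Among abundant genes H1f0, a linker histone, rose (0.65, adjusted p = 0.00286), and Tfrc, the transferrin receptor, fell (-0.64, adjusted p = 0.0368). Rfng, Nrbp2, Wipi1 and H1f0 kept the call whichever library was left out. Calls that ended with 1 library omitted were those of Tfrc (without control 1 or 2 or shRNA2 0, 1 or 2, adjusted p up to 0.136). Zinc finger genes named Zfp rose in 26 of 323 cases and fell in 1, with a median of 0.07 that became -0.03 under quantile normalization; 26 of 323 is close to the 7.27% of all genes that rose.

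**Figure D4:**
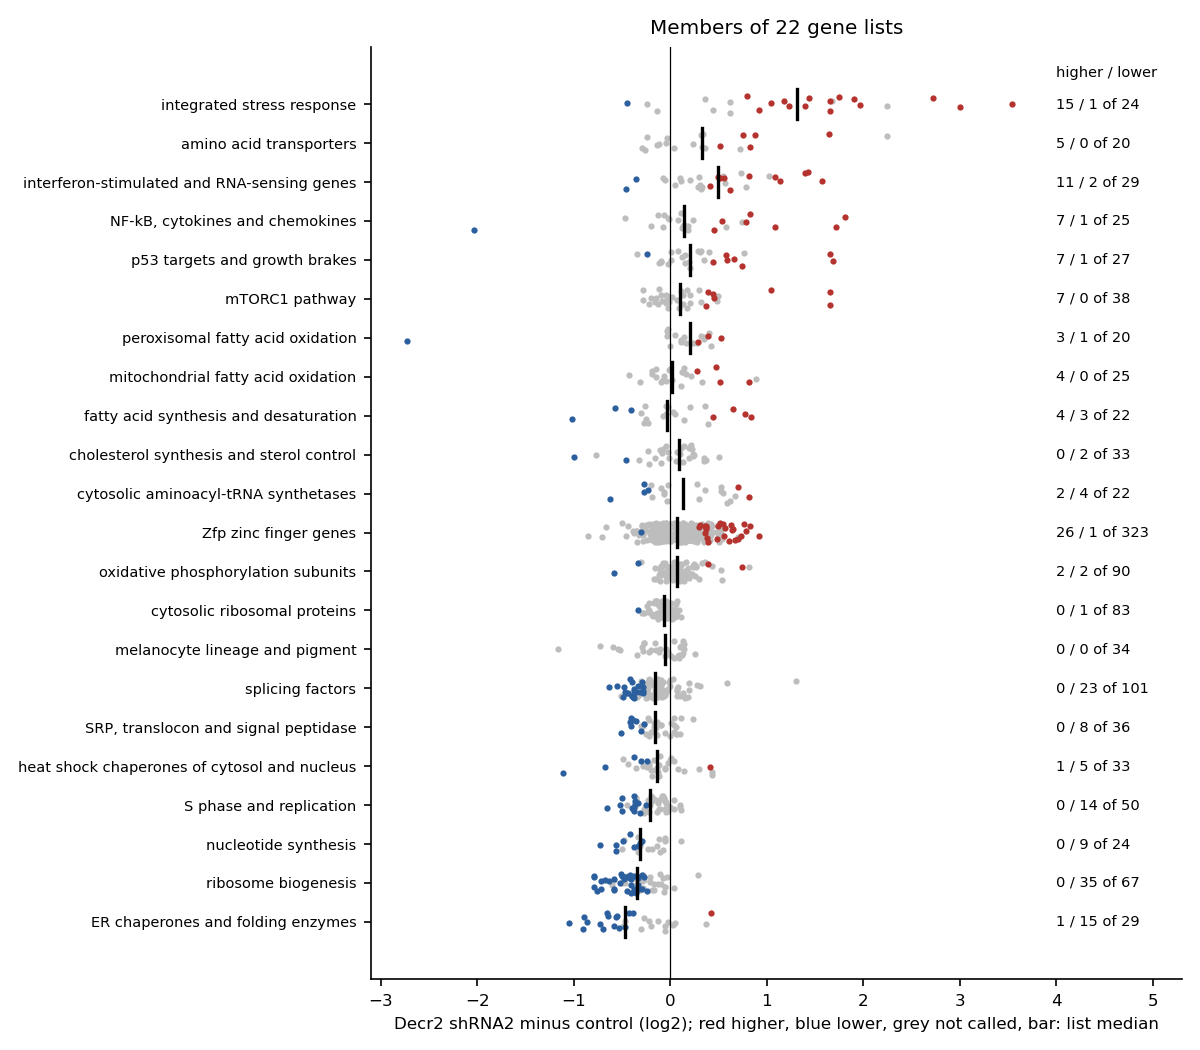
Difference of Decr2 shRNA2 from control (log2, horizontal) for each measured member of 22 gene lists; red members rose, blue members fell, grey members did not pass, and the black bar is the list median. Counts at the right give risen, fallen and measured members, from 15, 1 and 24 for the integrated stress response to 1, 15 and 29 for the ER chaperones.

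The shRNA2 line was then set against the shRNA1 line, in which Decr2 was less reduced. In this test 49 genes (0.455%) differed, 24 higher and 25 lower in shRNA2, of which 21 also differed from control. With paired libraries 201 differed (1.87%), with only the 6 libraries compared 6, and without the libraries numbered 0, 955. The count rests on single libraries: it was 3 without shRNA1 replicate 1 or shRNA2 replicate 2, 4 without shRNA1 replicate 2 or shRNA2 replicate 1, 13 without control replicate 2, 15 without control replicate 1, 17 without shRNA2 replicate 0 and 94 without shRNA1 replicate 0. The 49 hold 1 member of the stress response list, Ddit3, whose levels in the shRNA1 libraries were 5.06, 5.18 and 5.23; shRNA2 was higher by 0.83 (SE 0.10, adjusted p = 0.0167), and the 3 groups did not overlap. Of the 49 calls 3 were kept whichever library was left out, those of Cdc42, Wdr92 and Gm14698, of which the last 2 were named after their values were seen. That of Ddit3 was lost without shRNA1 1 or 2 or shRNA2 1 or 2, adjusted p up to 0.116.

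For the other stress genes the difference between the hairpins was not called, which does not show that it was absent. For Trib3 it was 0.66, with a 95% interval from 0.05 to 1.27; for Chac1 0.49, with a 95% interval from -0.29 to 1.27; and for Atf4 0.16, with a 95% interval from -0.34 to 0.66. The 95% interval ran from -0.41 to 0.59 for Nupr1, from -0.42 to 0.02 for Hspa5 and from -0.16 to 0.11 for Tmed10. The median difference between the lines was 0.15 for the stress response list, 0.02 for the ER chaperones and -0.07 for ribosome biogenesis. The ER chaperone list held 1 gene that differed, Fkbp10, lower in shRNA2 by 0.66, a call that was lost with any 1 library left out except control 0 and shRNA1 0, adjusted p up to 0.197.

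Genes lower in shRNA2 than in shRNA1 included Npc1, Tns3 and Cluh, each also lower than control. Npc1 stood at 6.04, 5.97 and 5.99 in the shRNA1 libraries, and shRNA2 was -0.84 (SE 0.13, adjusted p = 0.0377) relative to them. Tns3, a focal adhesion protein, had control levels of 7.45, 7.37 and 7.35, shRNA1 levels of 7.04, 7.57 and 7.43 and shRNA2 levels of 6.39, 6.29 and 6.53, and shRNA2 against shRNA1 was -0.94 (SE 0.13, adjusted p = 0.0233). Cluh, which binds messenger RNAs of mitochondrial proteins, stood at 6.97, 7.11 and 7.13, 6.83, 6.89 and 6.78 and 6.26, 6.19 and 6.19, with -0.62 (SE 0.07, adjusted p = 0.0121) between the hairpins. For these 3 genes all shRNA2 libraries lay below all libraries of the other groups. The calls against shRNA1 ended with 1 library left out: Npc1 (with any 1 library left out except control 0 and shRNA1 0 and shRNA2 0, adjusted p up to 0.161), Tns3 (with any 1 library left out except control 0 and shRNA1 0, adjusted p up to 0.142) and Cluh (without shRNA1 1 or 2 or shRNA2 1 or 2, adjusted p up to 0.0941). No single library, when left out, ended the call against control of Npc1, Tns3 and Cluh.

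For Cdc42 and Me1 the shRNA1 libraries lay outside the control range and the shRNA2 libraries overlapped it. Cdc42, a small GTPase that governs cell polarity, stood at 8.52, 8.52 and 8.50 in the controls, 7.75, 7.66 and 7.75 with shRNA1 and 8.52, 8.63 and 8.57 with shRNA2. Against shRNA1 the shRNA2 line was 0.86 (SE 0.06, adjusted p = 0.00118) higher, while against control it was 0.06 (adjusted p = 0.56). Me1, the cytosolic malic enzyme, was -0.78 (SE 0.09, adjusted p = 0.0121) relative to shRNA1 and -0.08 (adjusted p = 0.613) relative to control. Idh1, a cytosolic isocitrate dehydrogenase, was lower than control in all shRNA1 libraries and above the control range in all shRNA2 libraries; shRNA2 was 0.68 (SE 0.09, adjusted p = 0.0185) relative to shRNA1 and 0.27 (adjusted p = 0.0696) relative to control, where the adjusted p was 0.0497 with paired libraries. Bcat1 was higher than control in shRNA2 but lower than in shRNA1, by -0.92 (SE 0.13, adjusted p = 0.0241). Zbtb18 was higher than in both other groups, by 1.02 (SE 0.13, adjusted p = 0.0186) against shRNA1 and 0.51 (adjusted p = 0.0355) against control. Against shRNA1 the calls that ended with 1 library left out were those of Me1 (without shRNA1 1 or 2 or shRNA2 1 or 2, adjusted p up to 0.0941), Idh1 (without shRNA1 1 or 2 or shRNA2 0, 1 or 2, adjusted p up to 0.118), Bcat1 (with any 1 library left out except control 0 and shRNA1 0, adjusted p up to 0.144) and Zbtb18 (without shRNA1 1 or 2 or shRNA2 0, 1 or 2, adjusted p up to 0.118). Against control, the calls that did so were those of Bcat1 (without control 2 or shRNA2 2, adjusted p up to 0.0657) and Zbtb18 (with any 1 library left out except control 0 and shRNA1 0 and 2, adjusted p up to 0.131).

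**Figure D5:**
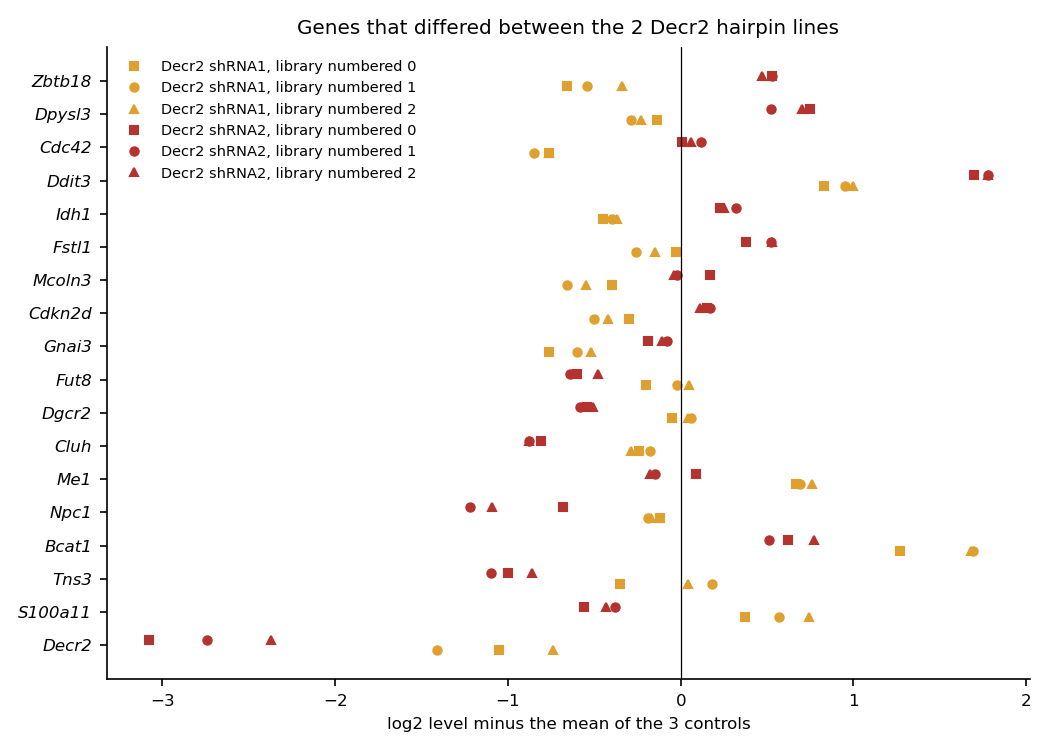
Log2 level minus the mean of the 3 controls for 18 genes that differed between the hairpin lines, in each shRNA1 library (orange) and shRNA2 library (red); squares, circles and triangles are the libraries numbered 0, 1 and 2. For Decr2 the shRNA2 libraries lie to the left of the shRNA1 libraries, and for Cdc42, Mcoln3 and Gnai3 they lie near 0 while the shRNA1 libraries lie to the left.

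The authors' deposited table gives its own test of the same hairpin. In it 717 genes were higher and 592 lower at an adjusted p under 0.05, of which 1300 are among the 1392 called here, and the fold change listed for Decr2 in the authors' deposited table is -2.72.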

How the data were processed

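RNA sequencing of 9 libraries gave 1 table of log2 values, which the authors deposited. Per the submitters' processing notes kallisto, FastQC and limma were used, without versions. The build, the annotation, the strand setting, any filter and the read depth were not given in the sources used here. P-values and moderated t scores that the authors deposited serve only to describe their own table. Which columns belong to shRNA2 was read from the authors' headed fold changes, within 0.05 of the differences of means in 99.7% of genes.

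The log2 values went unchanged into limma 3.58.1 (R 4.3.3), with a mean per group, all 9 libraries and an intensity trend. P-values were adjusted by Benjamini-Hochberg over 10762 genes and called under 0.05. In simulated data with 200 changed genes, the fit called 47% of changes of 0.5 in size and 89% of changes of 1. It also called 7 unchanged genes. Noise was drawn for each library alone, without the shared deviation of measured libraries given next, so the simulation could not test its effect. Same-numbered libraries deviated together (r = 0.496, 0.216 and 0.197 for shRNA2 and control), each above 0.1, so the numbers were taken to pair them; replicate 1 of shRNA2 with 2 of the control (0.272) and 2 of shRNA2 with 1 of the control (0.302) correlated more than their own numbers. Alternatives were the block, 6 libraries, no trend, a filter, 3 scalings, a fold minimum and left-out libraries.

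The comparison and the 60 gene lists were chosen with earlier results of these data known. Named genes were, among plain symbols, the 15 largest changes per direction above the median level with no overlap of groups, 10 per direction of the most abundant 5%, the 8 smallest p-values per direction, 8 per direction between hairpins, up to 6 called members per list (2 where none was called) and Decr2. Promoters are RefSeq sequences on GRCm38.p6, matched for 80.9% of genes by gene identifier or symbol. Exons of 93 of 266 named genes overlap another gene on the opposite strand, such as Atf5, Aldh1l2, Psph and Ccnd1, and reads of such pairs cannot be told apart.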

Additional observations from a re-analysis of the deposited data

How the results depend on the processing

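Libraries were taken out, rescaled or paired in turn. The count of genes that differed between shRNA2 and control, 1392 (782 higher, 610 lower), was 2583 (1438 and 1145) with the replicate block. It was 4011 (2068 and 1943) without the libraries numbered 0, and 150 (134 and 16) at a change of at least 1. Removing the lowest 25% of genes left 487 higher, and scaling to a common sum left 380 lower. With 1 library left out it ran from 406 to 2450 (258 to 1343 higher, 148 to 1107 lower). Every one of the 1392 was also called with the block, so the pairing ended none of these calls. The block leaves the differences between groups unchanged, so the sign could not turn. The count between shRNA2 and shRNA1, 49 (24 higher, 25 lower), was 201 (89 and 112) with the block, 6 (5 and 1) in the fit of 6 libraries, 955 (422 and 533) without the libraries numbered 0, and 12 (4 and 8) at a change of at least 1. With 1 library left out it ran from 3 to 94 (3 to 38 higher, 0 to 56 lower). The cause of these shifts was not tested. Decr2 kept its call against control in each alternative that tested it, which the removal of the lowest 25% of genes did not, since Decr2 was among those removed. Of the other 265 genes named by rule, 149 changed from called to not called without control replicate 1, 52 with quantile normalization and 31 without the intensity trend. The sign turned for Lck (-0.07 with quantile normalization, -0.01 to 0.30 with 1 library left out) and Mcoln3 (-0.03 to 0.07 with 1 library left out, -0.05 without the libraries numbered 0), neither of which was called. Read depth is unknown, so precision comes from the spread between libraries alone.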

Other observations

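Several genes with changes above 2 in size on the log2 scale lay outside the gene lists and the rule for naming, and were picked here after their values were seen. G0s2, an inhibitor of triglyceride breakdown, had levels of 0.15, 0.35 and -0.74 in the controls and 2.25, 3.0 and 2.89 with shRNA2, a difference of 2.79 (SE 0.35, adjusted p = 0.00283) by limma. Cyb5r2, a cytochrome b5 reductase, had levels of 0.70, 0.84 and 0.79 and 2.89, 3.91 and 3.85, a difference of 2.77 (SE 0.28, adjusted p = 0.00128). Emp1, a membrane protein, had levels of 5.36, 4.82 and 4.85 and 3.27, 2.51 and 2.07, a difference of -2.39 (SE 0.33, adjusted p = 0.00392). The shRNA2 libraries lay wholly outside the control range in all 3 genes. Rab7b was 3.19 (adjusted p = 0.00927) and Serpinb9b -2.69 (adjusted p = 0.00759), both with control or shRNA2 levels near or below 0 on the log2 scale, where fold changes are least certain. With any 1 library left out, G0s2, Cyb5r2, Emp1, Rab7b and Serpinb9b kept the call.

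Of 90 measured subunits of oxidative phosphorylation 2 rose and 2 fell, and of 44 proteasome genes 2 rose, the interferon-linked activators Psme1 and Psme2, and 2 fell. Of 62 genes of lysosome, V-ATPase and autophagy 7 rose and 2 fell. Among 107 chromatin regulators 9 rose and 5 fell, where 7.27% of all genes rose and 5.67% fell. Without the libraries numbered 0, 19.2% of all genes rose and 18.1% fell. In that setting 17 rose and 6 fell among the oxidative phosphorylation subunits, and 2 rose and 12 fell among the proteasome genes. Of the lysosome list 18 rose and 14 fell, and of the chromatin regulators 18 rose and 19 fell. Hdac9, a class II deacetylase, was 1.80 (adjusted p = 0.0188), Arid5a 1.22 (adjusted p = 0.00171) and the Polycomb protein Cbx2 -0.78 (adjusted p = 0.0051). Arid5a and Cbx2 kept the call whichever library was left out. The call was lost for Hdac9 (without control 1 or 2 or shRNA2 1 or 2, adjusted p up to 0.0798), Psme1 (without control 1 or 2 or shRNA2 0, 1 or 2, adjusted p up to 0.116) and Psme2 (without control 1 or 2 or shRNA2 1 or 2, adjusted p up to 0.0818).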
